A study of Mus musculus with 12 samples.

Results

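The comparison described here asks what losing Phlpp1 does to the transcriptome of mouse chondrocytes that already lack Phlpp2. It sets the 3 Phlpp1/2 KO libraries against the 3 Phlpp2 KO libraries, 6 of the 12 libraries sequenced, and its members are the 16565 genes, of 49315 in the count table, that passed a filter for low counts. The cells were primary epiphyseal chondrocytes of mice aged 5 days. They had been freed with collagenase, stored frozen, then thawed and kept overnight in serum before bulk RNA sequencing. Both groups of the comparison carry the Phlpp2 knockout (labelled Phlpp2-/-), and the double knockout is labelled Phlpp1/2-/-, so that the genotype labels differ in Phlpp1 alone. WT and Phlpp1 KO (Phlpp1-/-) mice, also in 3 libraries each, are used below for the same loss on an intact Phlpp2 background. All mice were labelled female. The strain field read C57BL6 for WT, Phlpp1 KO, Phlpp2 KO 1 and Phlpp2 KO 2, C57BL7 for Phlpp2 KO 3, and C57BL8, C57BL9 and C57BL10 for Phlpp1/2 KO 1, 2 and 3. These numbers rise by 1 from one library to the next, so that the field may not name real strains; taken as written, no strain is shared by the groups compared, and strain and genotype cannot be told apart. The labels name no promoter-driven Cre, no batch, and not whether a library came from 1 animal or a pool.

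PHLPP1 and PHLPP2 are related protein phosphatases with leucine-rich repeats and a pleckstrin homology domain. They remove the phosphate from the hydrophobic motif of AKT, protein kinase C and other AGC kinases and so lower their activity, and AKT in turn keeps FOXO transcription factors out of the nucleus. In growth plate cartilage, where chondrocytes proliferate, enlarge and mineralise before bone forms, PHLPP1 has been linked to AKT, ERK and FGF18 signalling and to the pace of maturation.

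The 6 libraries held 26471076 to 33115345 counts, and 1 count was worth 0.0302 to 0.0378 CPM (the count scaled to a fixed library size). They were alike in overall profile, with a Pearson r of 0.989 to 0.994 between any pair over all tested genes on the log2 CPM scale; genes are not independent replicates. The first principal component of the 6 libraries carried 28.1% of the variance. Phlpp1/2 KO 1 and 2 were at 21.2 and 23.6 on it and the Phlpp2 KO libraries at -24.7, -1.12 and -12.3, while Phlpp1/2 KO 3, at -6.63, lay among the Phlpp2 KO libraries. Phlpp1/2 KO 1 also went against its sex label: Xist, the RNA of the inactive X chromosome, was at 3.77 CPM there and at 387 to 576 CPM in the other 5, and 4 Y-linked genes summed to 109 CPM there and to at most 0.383 CPM in the other 5. Phlpp1 KO 1 also had low Xist, at 13.9 CPM, with 0 counts of those Y-linked genes. Counts of calls are therefore given with and without these libraries.

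Phlpp1 itself followed the labels. Its level (ENSMUSG00000044340, chromosome 1, 106171752 to 106394250, mm10) was 44.6, 37.9 and 41.6 CPM in Phlpp2 KO 1, 2 and 3 against 8.12, 7.71 and 8.83 CPM in Phlpp1/2 KO 1, 2 and 3. The groups were far apart, and every double knockout library kept some Phlpp1 reads. Phlpp1 fell 5.03-fold (log2 change -2.33, SE 0.10), with a Benjamini-Hochberg adjusted p of 4.83e-08 by edgeR's quasi-likelihood test, which gives all adjusted p values below. On the intact background the fall was of similar size, from a mean of 39.7 CPM in WT to 9.16 CPM in Phlpp1 KO (log2 change -2.11, SE 0.10, adjusted p 7.11e-08), and the difference between these changes was not called (-0.22, SE 0.13, adjusted p 0.492).

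Phlpp2 RNA was not at 0 in either group that carries its knockout, and it differed between them. Its level (ENSMUSG00000031732, chromosome 8, 109868542 to 109944671) was 17.1, 16.8 and 19.4 CPM in Phlpp2 KO 1, 2 and 3 against 11.1, 10.2 and 11.4 CPM in Phlpp1/2 KO 1, 2 and 3. The double knockout libraries were all lower, and Phlpp2 fell 1.63-fold (log2 change -0.70, SE 0.10, adjusted p 0.0185). WT stood at 25.5 CPM and Phlpp1 KO at 24.2 CPM, means whose difference was not called (adjusted p 0.699). The fall on the Phlpp2-null background was lost without Phlpp2 KO 3, Phlpp1/2 KO 1 or Phlpp1/2 KO 2, with adjusted p of up to 0.118. A gene-level count does not show which exons the remaining reads cover.

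Beyond the targeted pair, few genes changed. At an adjusted p under 0.05, 12 of the 16565 genes were called (0.0724%), 6 higher and 6 lower in Phlpp1/2 KO (0.0362% each way). An unadjusted p under 0.05 was reached by 1465 genes (8.84%; 3.94% higher and 4.91% lower), and 2058 genes (12.4%) had no overlap between the libraries of the 2 groups. Without 1 of the 6 libraries, 811 (without Phlpp1/2 KO 2) to 2565 genes (without Phlpp1/2 KO 3) reached that unadjusted p. Without both libraries low in Xist, 793 genes did. The lower genes were Phlpp1, Phlpp2, Wdfy1, D2hgdh, Pign and Usp40, and the higher genes were Gm29337, Mlph, Fosb, Ciapin1, Zfand2a and Dgkd. The number of called genes also depended on single libraries. It was 4 without Phlpp1/2 KO 1, 5 without Phlpp2 KO 2 or 3, and 132 (18 higher, 114 lower) without Phlpp1/2 KO 3, the library that lay among the Phlpp2 KO libraries. Without both libraries low in Xist it was 3. From the 6 libraries alone it was also 3, of which 2, Phlpp1 and Wdfy1, were among the 12. Without 1 of the WT or Phlpp1 KO libraries, which share the estimate of spread, it was 6 to 11. Phlpp1, Wdfy1 and D2hgdh were called in all 6 fits that left out 1 Phlpp2 KO or Phlpp1/2 KO library, and Gm29337 in 5. Mlph and Phlpp2 were called in 3, Dgkd in 2, and Fosb, Ciapin1, Zfand2a, Pign and Usp40 in 1, the fit without Phlpp1/2 KO 3.

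**Figure D1:**
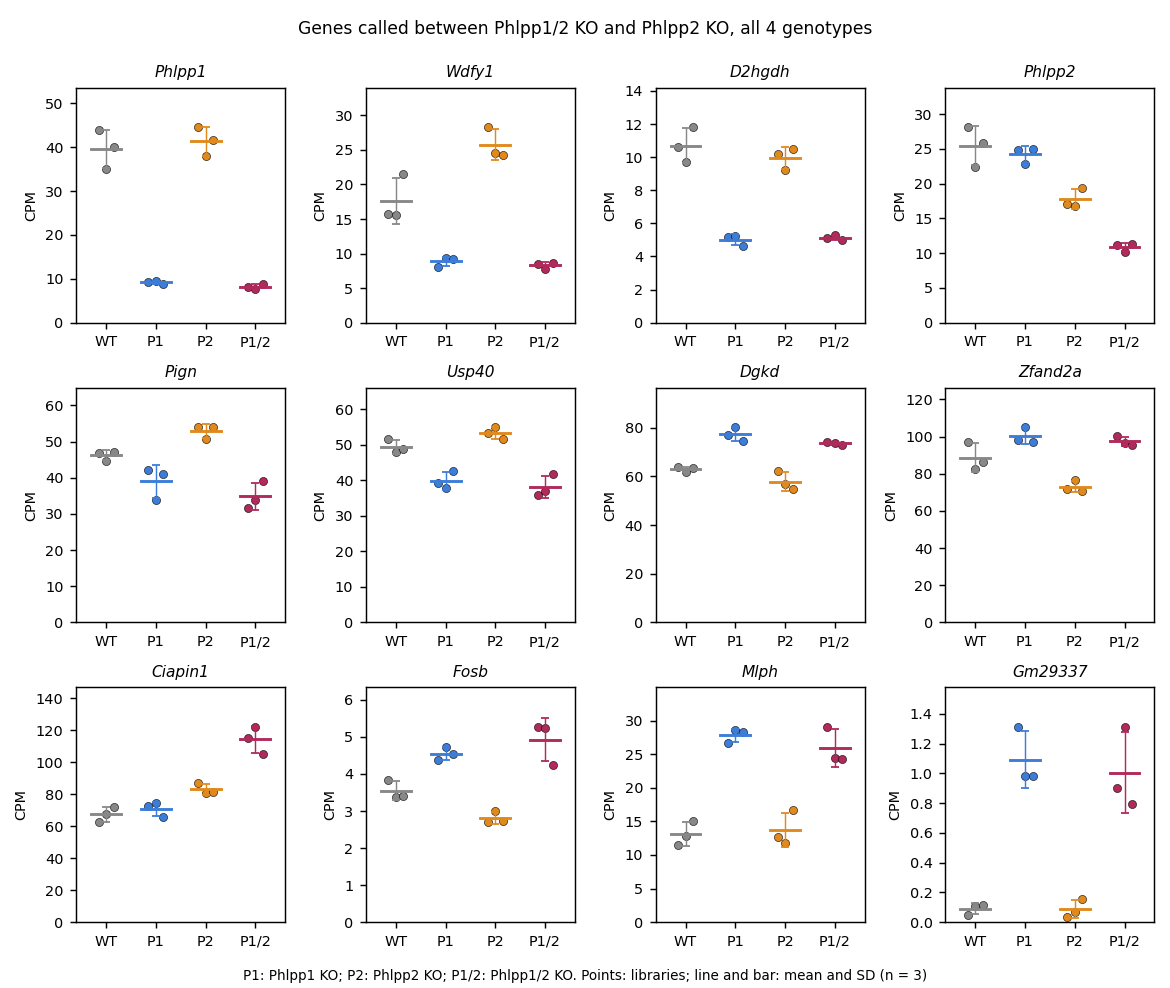
Level in CPM of the 12 genes called between Phlpp1/2 KO and Phlpp2 KO, in all 12 libraries; each panel has its own axis starting at 0, points are libraries, and lines and bars are the mean and SD of 3 libraries. For each gene the 3 Phlpp1/2 KO points lie wholly above or below the 3 Phlpp2 KO points. For all but Phlpp2 and Ciapin1 the Phlpp1 KO points lie wholly on the same side of WT, by a narrow margin for Zfand2a.

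Of the 12 called genes, 8 lie on chromosome 1 at or near Phlpp1. Within 20 Mb of the gene, 147 genes were tested and 7 were called (4.76%, against 0.0724% of all tested genes), 3 higher and 4 lower, and Wdfy1 lies 26.4 Mb away. On chromosome 1 beyond 30 Mb from Phlpp1, 0 of 741 genes were called by edgeR and 1 by DESeq2, 83 had an unadjusted p under 0.05, and 11.9% had groups that did not overlap. Without Phlpp1/2 KO 3, 7 genes were called there, and 11 of the 132 calls lay within 30 Mb of Phlpp1. Without the low-count filter, 2 were called there. The called neighbours all lay on 1 side. Of the 147 tested genes within 30 Mb at lower coordinates than Phlpp1, 7 were called, and of the 141 at higher coordinates 0 were called by edgeR or DESeq2. An unadjusted p under 0.05 was reached by 30 and 11 genes, and groups did not overlap for 25.9% and 17.7%. Without Phlpp1/2 KO 3, 1 gene at higher coordinates was called. The part that chromosome carried along with the targeted allele plays in these neighbours was not tested.

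Wdfy1 and D2hgdh had the largest falls after Phlpp1. Wdfy1, whose FYVE domain binds phosphatidylinositol 3-phosphate on early endosomes (chromosome 1, 79702262 to 79776143), was at 28.3, 24.6 and 24.2 CPM in Phlpp2 KO 1, 2 and 3 and at 8.47, 7.77 and 8.62 CPM in Phlpp1/2 KO 1, 2 and 3. The groups did not overlap, and Wdfy1 fell 3.10-fold (log2 change -1.63, SE 0.13, adjusted p 5.90e-05). D2hgdh, the mitochondrial enzyme that oxidises D-2-hydroxyglutarate (chromosome 1, 93824909 to 93852348), was at 10.2, 9.23 and 10.5 CPM in the Phlpp2 KO libraries and at 5.09, 5.32 and 5.02 CPM in the Phlpp1/2 KO libraries. Its groups did not overlap either, and it fell 1.94-fold (log2 change -0.95, SE 0.11, adjusted p 0.00358). D2hgdh transcripts share 99.12% to 99.65% of 567 bases with the pseudogenes Gm7889 and Gm18666, which held at most 9 counts in any library.

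Pign and Usp40 were lower by smaller steps. Pign, the ethanolamine phosphate transferase that acts early in building glycosylphosphatidylinositol anchors (chromosome 1, 105518422 to 105663677, 0.508 Mb from Phlpp1), was at 54.1, 50.8 and 54.0 CPM in Phlpp2 KO and at 31.6, 33.9 and 39.0 CPM in Phlpp1/2 KO. The double knockout libraries were all lower, with Phlpp1/2 KO 3 nearest to the other group, and Pign fell 1.52-fold (log2 change -0.60, SE 0.09, adjusted p 0.0299). Its exons hold stretches matched by many other transcripts, so that its count is uncertain. The deubiquitinase Usp40 (chromosome 1, 87945119 to 88008551) was at 53.3, 55.0 and 51.6 CPM in Phlpp2 KO and at 35.9, 37.1 and 41.7 CPM in Phlpp1/2 KO. Here too Phlpp1/2 KO 3 was the nearest to the other group, and the fall was 1.40-fold (log2 change -0.48, SE 0.07, adjusted p 0.0259).

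Mlph, Dgkd and Gm29337 rose in the same stretch of chromosome 1. Mlph encodes melanophilin, which couples RAB27A to myosin Va in the transport of melanosomes (90915085 to 90951142). It was at 12.7, 11.8 and 16.7 CPM in Phlpp2 KO and at 29.2, 24.4 and 24.3 CPM in Phlpp1/2 KO, groups that did not overlap, a rise of 1.89-fold (log2 change 0.92, SE 0.13, adjusted p 0.0219). Dgkd encodes diacylglycerol kinase delta, which turns diacylglycerol into phosphatidic acid (87853287 to 87945180). It was at 62.0, 56.8 and 54.6 CPM in Phlpp2 KO and at 74.3, 73.6 and 73.0 CPM in Phlpp1/2 KO, a rise of 1.27-fold (log2 change 0.35, SE 0.06, adjusted p 0.0469) with no overlap. Dgkd and Usp40, which moved in opposite directions, overlap by 62 bases of exon on opposite strands, and reads from that overlap cannot be told apart without the strand setting. The long noncoding RNA gene Gm29337 (88868475 to 88875410) had 1, 2 and 4 reads in the Phlpp2 KO libraries and 28, 43 and 27 in the Phlpp1/2 KO libraries. That is a 12.04-fold ratio of scaled counts with an exact 95% interval of 5.63 to 30.7, which covers counting error only (adjusted p 0.00563).

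**Figure D2:**
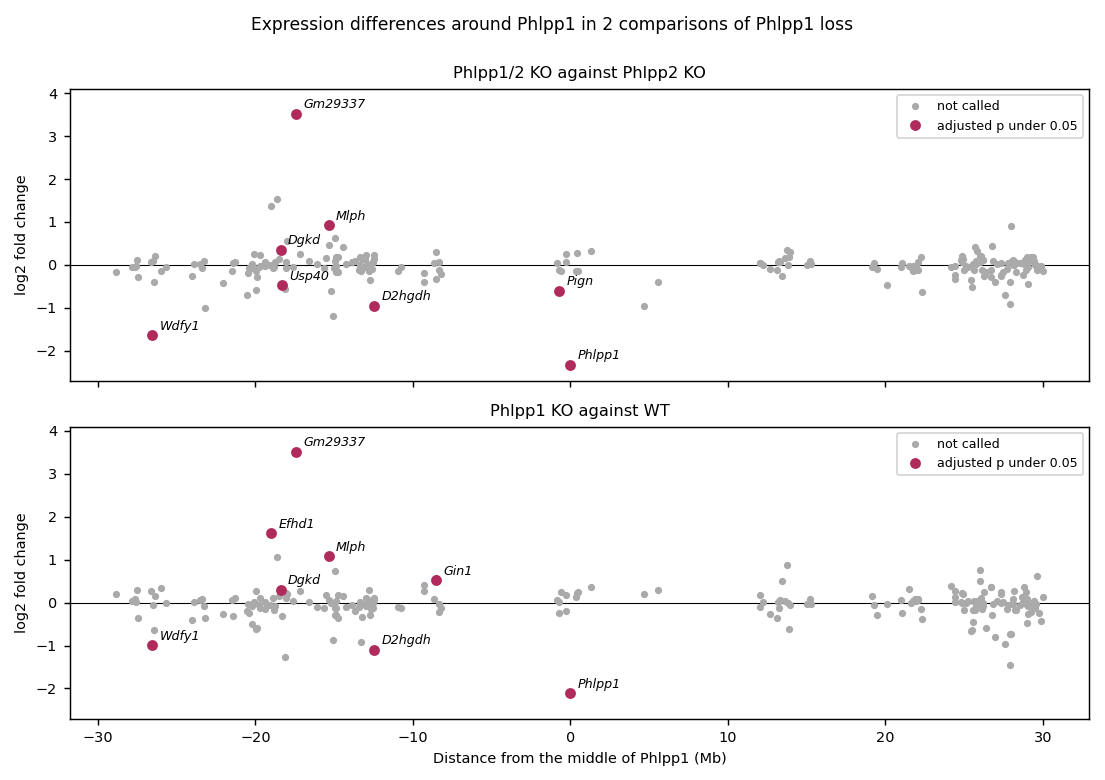
Log2 fold change of tested genes of at least 1 CPM against distance in Mb from the middle of Phlpp1, for Phlpp1/2 KO against Phlpp2 KO (top) and Phlpp1 KO against WT (bottom); red points have an adjusted p under 0.05. In both panels the red points lie at Phlpp1 or at lower coordinates, and Wdfy1, D2hgdh, Gm29337, Mlph and Dgkd are red in both with the same sign.

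The same loss on the intact background, Phlpp1 KO against WT, was measured in separate libraries. It called 89 genes (0.537% of those tested). The comparisons shared 6 called genes (0.0362%), all in the same direction: Phlpp1, Wdfy1, D2hgdh, Gm29337, Mlph and Dgkd, which are 50% of the 12 calls on the Phlpp2-null background and 6.74% of the 89. All 6 lie on chromosome 1 within 30 Mb of Phlpp1 or are Phlpp1 itself. The number shared ran from 4 to 7 without any 1 library, except that it was 3 without Phlpp2 KO 2 and 14 without Phlpp1/2 KO 3, and it was 2 without both libraries low in Xist. All 12 calls had the same sign in both comparisons, as did 65 of the 89 (73.0%) and 8405 of all tested genes (50.7%). Of the 65, 30 had an unadjusted p under 0.05 on the Phlpp2-null background. Among the 12, Phlpp2 and Ciapin1 had log2 changes of only -0.07 and 0.07 on the intact background (adjusted p 0.699 and 0.609).

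The sizes on the intact background were as follows. Mlph rose from a mean of 13.2 CPM in WT to 27.9 CPM in Phlpp1 KO (log2 change 1.08, SE 0.13, adjusted p 0.00208), and D2hgdh fell from 10.7 to 5.00 CPM (log2 change -1.10, SE 0.11, adjusted p 0.000358). Gm29337 rose by 3.51 on the log2 scale and Dgkd by 0.30 (adjusted p 0.00208 and 0.0401). Wdfy1 fell from 17.6 to 8.86 CPM (log2 change -0.99, SE 0.13, adjusted p 0.00315). The mean was 25.7 CPM in Phlpp2 KO and 8.29 CPM in Phlpp1/2 KO. The log2 difference between Phlpp2 KO and WT was 0.54 (adjusted p 0.149) and the difference between the changes was -0.64 (SE 0.18, adjusted p 0.151), and neither was called.

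How far the log2 changes of the 2 comparisons were correlated near Phlpp1 depended on distance and side. Across the 110 genes of at least 1 CPM within 20 Mb of Phlpp1, their log2 changes correlated with r = 0.839, and r was 0.810 without Phlpp1 itself. Without the genes called in either comparison, 101 genes were left and r was 0.483. Within 10 Mb, 21 genes of that level gave r = 0.773. There r was 0.0434 without Phlpp1 itself and -0.269 over the 18 genes called in neither comparison. Within 30 Mb, r was 0.855 across 110 genes at lower coordinates and 0.256 across 110 genes at higher coordinates. Over all 13557 genes of that level r was 0.0625, and over the 592 genes of chromosome 1 beyond 30 Mb it was -0.02. These correlations describe genes, which share their libraries and are not independent. Within 20 Mb of Phlpp2 on chromosome 8, r was 0.243 across 287 genes.

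**Figure D3:**
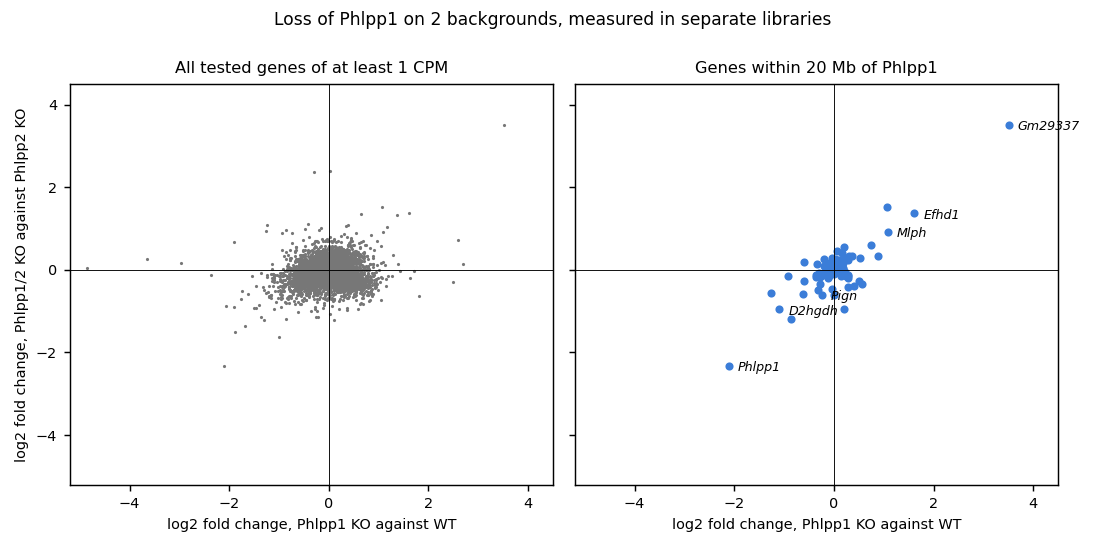
Log2 fold change on loss of Phlpp1 on the Phlpp2-null background (y) against that on the WT background (x), for all tested genes of at least 1 CPM (left, 13557 genes) and those within 20 Mb of Phlpp1 (right, 110 genes). A gene is plotted when its mean in the higher of Phlpp2 KO and Phlpp1/2 KO reaches 1 CPM, and the points on the right rise from Phlpp1 to Gm29337 (r = 0.839), and the points on the left form a round cloud (r = 0.0625).

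On chromosome 8, where both groups carry the Phlpp2 knockout, 345 genes within 20 Mb of Phlpp2 were tested and 2 were called (0.58%), Phlpp2 and Ciapin1. Ciapin1 encodes anamorsin, a factor for building iron-sulphur clusters in the cytosol (94819804 to 94838358, 15.03 Mb from Phlpp2). It was at 87.2, 80.8 and 81.7 CPM in Phlpp2 KO and at 115, 122 and 105 CPM in Phlpp1/2 KO, a rise of 1.37-fold with no overlap (log2 change 0.46, SE 0.07, adjusted p 0.0439). WT and Phlpp1 KO stood at 67.4 and 71.0 CPM (log2 change 0.07, adjusted p 0.609). The Ciapin1 exons hold 801 bases annotated as Gm7418 on the opposite strand and resembling Rpl7a, and Gm7418 had 0 counts in every library. Without the strand setting, whether reads of ribosomal protein genes placed there were counted for Ciapin1 cannot be told, so that its count is uncertain.

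With all libraries, edgeR called Fosb and Zfand2a outside 30 Mb of both targeted genes, 2 of 15825 genes (0.0126%). That number was 25 with DESeq2, 20 without the low-count filter and 115 without Phlpp1/2 KO 3. With limma-voom it was 1, from the 6 libraries alone 1 and with a replicate block 2. It was 7 without Phlpp1/2 KO 2, 3 without Phlpp2 KO 1, 1 without Phlpp2 KO 2 or WT 2, and 0 without Phlpp2 KO 3, Phlpp1/2 KO 1 or any 1 of the Phlpp1 KO libraries. Fosb encodes a subunit of the AP-1 transcription factor and belongs to the immediate early genes, which growth factors switch on within minutes through ERK, SRF and CREB. Zfand2a encodes a zinc finger protein of the proteasome that arsenite and heat induce. Their promoters are shown because these are the called genes that no targeted locus flanks, and because the factors behind both responses have known recognition motifs. Each covers 250 bases before to 50 bases after the start of transcription, from RefSeq on GRCm38.p6, with matches to the motifs searched in capitals.
Fosb, chr7:19309996-19310295, minus strand: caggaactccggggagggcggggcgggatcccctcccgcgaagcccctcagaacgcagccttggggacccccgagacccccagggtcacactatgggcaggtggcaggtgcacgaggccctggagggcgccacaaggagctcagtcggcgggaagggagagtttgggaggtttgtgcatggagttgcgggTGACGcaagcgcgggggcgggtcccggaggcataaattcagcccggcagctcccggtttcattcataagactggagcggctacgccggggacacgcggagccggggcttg
Zfand2a, chr5:139484442-139484741, minus strand: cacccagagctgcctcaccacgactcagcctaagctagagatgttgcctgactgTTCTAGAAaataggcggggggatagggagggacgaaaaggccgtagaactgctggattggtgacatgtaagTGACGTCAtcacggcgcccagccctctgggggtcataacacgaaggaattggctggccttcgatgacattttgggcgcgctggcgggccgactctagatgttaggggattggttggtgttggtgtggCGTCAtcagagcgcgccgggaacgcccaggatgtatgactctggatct
The Fosb window holds TGACG, the half-site of the cyclic AMP response element bound by CREB, 60 bases before the start. That half-site occurs in 20.8% of 32851 promoters on either strand. The Zfand2a window holds the whole element TGACGTCA 125 bases before the start (1.79% of promoters) and TTCTAGAA, a match to the heat shock element core TTCNNGAA, 196 bases before it (8.52%). CGTCA, the half-site on the other strand, lies just after the start. The CArG box of SRF (1.63%), the AP-1 site (5.2%) and the heat shock core GAANNTTC (7.86%) had no match in either window. The half-site overlaps the whole element, and a match describes letters, not binding.

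Fosb was low in all libraries but separated the groups. It was at 2.71, 3.01 and 2.72 CPM in Phlpp2 KO 1, 2 and 3 and at 5.28, 5.23 and 4.25 CPM in Phlpp1/2 KO 1, 2 and 3. Every double knockout library was above every Phlpp2 KO library, and Fosb rose 1.74-fold (log2 change 0.80, SE 0.13, adjusted p 0.0469). Its means were 3.55 CPM in WT and 4.55 CPM in Phlpp1 KO (log2 change 0.36, SE 0.13, adjusted p 0.149), between the Phlpp2 KO and Phlpp1/2 KO means. Zfand2a was at 71.7, 76.6 and 70.8 CPM in Phlpp2 KO and at 100.2, 96.4 and 95.7 CPM in Phlpp1/2 KO, without overlap, a rise of 1.33-fold (log2 change 0.42, SE 0.07, adjusted p 0.0432). WT and Phlpp1 KO stood at 88.7 and 100.3 CPM (adjusted p 0.153), so that the Phlpp2 KO libraries were the lowest of the 4 genotypes. Both genes were called without Phlpp1/2 KO 3 and in no other fit that left out 1 of the 6 libraries. Fosb was not called by limma-voom, and neither gene was called with a replicate block or from the 6 libraries alone.

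Among the 21 tested immediate early genes, Fosb was the 1 called member. The list had 18 members with a positive log2 change and a median of 0.18, against 0.00 over all tested genes, and 6 members, all higher, had an unadjusted p under 0.05 (3.94% of all genes did so upwards). Arc, which encodes a cytoskeletal protein of synapses, was at 7.96, 6.68 and 6.48 CPM in Phlpp2 KO and at 10.5, 14.3 and 9.66 CPM in Phlpp1/2 KO (log2 difference 0.70, adjusted p 0.410). Egr1, a zinc finger transcription factor induced by ERK, was at 79.3, 67.8 and 76.6 CPM in Phlpp2 KO and at 99.1, 113 and 81.6 CPM in Phlpp1/2 KO (log2 difference 0.40, SE 0.13, adjusted p 0.516). Arc and Egr1 thus had groups that did not overlap but did not pass the test. The AP-1 genes Fosl1 and Fos had log2 differences of 0.33 and 0.21 (adjusted p 0.516 and 0.569), the latter with overlapping groups.

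The genes that feed back on ERK, which encode Sprouty proteins, MAP kinase phosphatases and ETS factors, had 0 called members of 18 by edgeR and by DESeq2. Since edgeR called 0.0724% of all tested genes, 0 calls in this or any list below says little about its members. Of these, 13 had a positive log2 difference, the median was 0.10, and 3, all higher, had an unadjusted p under 0.05. Spry4, an inhibitor of receptor tyrosine kinase signalling, was at 11.0, 10.7 and 10.6 CPM in Phlpp2 KO and at 14.0, 13.9 and 12.5 CPM in Phlpp1/2 KO, with no overlap (log2 difference 0.32, SE 0.09, adjusted p 0.436). Its relative Spry2 had a log2 difference of 0.24 and the ERK phosphatase gene Dusp5 of 0.41 (adjusted p 0.516 and 0.551). On the intact background the list's median was -0.02.

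Outside the calls, the 9 genes with the smallest p and no overlap between groups were Has2, Phgdh, Itga1, Efhd1, Cd300lb, Ckb, Tnc, Pcdhb14 and Usb1. DESeq2 called all 9. Has2, the hyaluronan synthase, was at 60.6, 63.1 and 65.1 CPM in Phlpp2 KO and at 37.1, 33.3 and 48.1 CPM in Phlpp1/2 KO (log2 difference -0.67, SE 0.12, adjusted p 0.0869). WT and Phlpp1 KO were at 52.9 and 52.1 CPM (log2 difference -0.02), and the difference between these log2 differences was -0.65 (adjusted p 0.151). Itga1, the alpha subunit of a collagen-binding integrin, was at 37.0, 39.2 and 42.1 CPM in Phlpp2 KO and at 27.9, 27.7 and 29.2 CPM in Phlpp1/2 KO (log2 difference -0.48, SE 0.09, adjusted p 0.0966). Neither passed edgeR's test with all 12 libraries, the low-count filter and no block. Itga1 passed it with a replicate block and without the low-count filter. Both passed it without Phlpp1/2 KO 3 (adjusted p 0.00355 for Has2 and 0.0452 for Itga1). Tnc, which encodes tenascin C of the matrix, was at 441, 382 and 402 CPM in Phlpp2 KO and at 540, 555 and 544 CPM in Phlpp1/2 KO (log2 difference 0.42, adjusted p 0.198). On the intact background Tnc was called, rising from 372 to 549 CPM (log2 change 0.56, adjusted p 0.0116).

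Phgdh, which catalyses the first step of serine synthesis, was at 344, 314 and 324 CPM in Phlpp2 KO and at 409, 427 and 405 CPM in Phlpp1/2 KO (log2 difference 0.34, SE 0.06, adjusted p 0.0869). Its pseudogenes include Gm7901, with 98.75% identity over 1597 bases. Ckb, the brain type creatine kinase, differed by 0.33 and Usb1, which trims U6 RNA, by 0.32 on the log2 scale (adjusted p 0.198 and 0.246). Usb1 lies 14.5 Mb from Phlpp2. Efhd1, a mitochondrial calcium-binding protein gene 18.9 Mb from Phlpp1, differed by 1.37 (adjusted p 0.125) and was called on the intact background (log2 change 1.62, adjusted p 0.0192). Cd300lb, a receptor of myeloid cells, differed by 0.61 and the protocadherin gene Pcdhb14 by -0.73 (adjusted p 0.146 and 0.246). Snapc1 and Dhrs7, 2 chromosome 12 genes that fell on the intact background (log2 changes -0.95 for both, adjusted p 0.00753 and 0.000784), had log2 differences of -0.61 and -0.42 here without passing the test (adjusted p 0.254 and 0.342). DESeq2 called Snapc1, as did edgeR without Phlpp1/2 KO 3 (adjusted p 0.0448), and edgeR called Dhrs7 without the low-count filter.

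No member of the lists on AKT signalling was called by edgeR, by DESeq2 or without Phlpp1/2 KO 3. Of 24 PHLPP substrates and related AGC kinase genes, 6 had an unadjusted p under 0.05, 1 higher and 5 lower, and the median was -0.02. Akt1 was at 382, 360 and 364 CPM in Phlpp2 KO and at 406, 411 and 385 CPM in Phlpp1/2 KO (log2 difference 0.12, SE 0.06, adjusted p 0.575). Sgk1 differed by -0.30 and Tsc1, a brake on mTORC1, by 0.14 (adjusted p 0.516 for both). Of 25 FOXO factors and target genes, 3, all lower, had an unadjusted p under 0.05, with a median of -0.07. Foxo1 was at 45.8, 46.4 and 43.5 CPM in Phlpp2 KO and at 39.4, 37.3 and 39.9 CPM in Phlpp1/2 KO, without overlap (log2 difference -0.22, SE 0.07, adjusted p 0.516). The FOXO targets Txnip and Sesn3 differed by -0.24 and -0.29 (adjusted p 0.516 for both). RNA levels do not report phosphorylation, which is what the phosphatases act on.

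**Figure D4:**
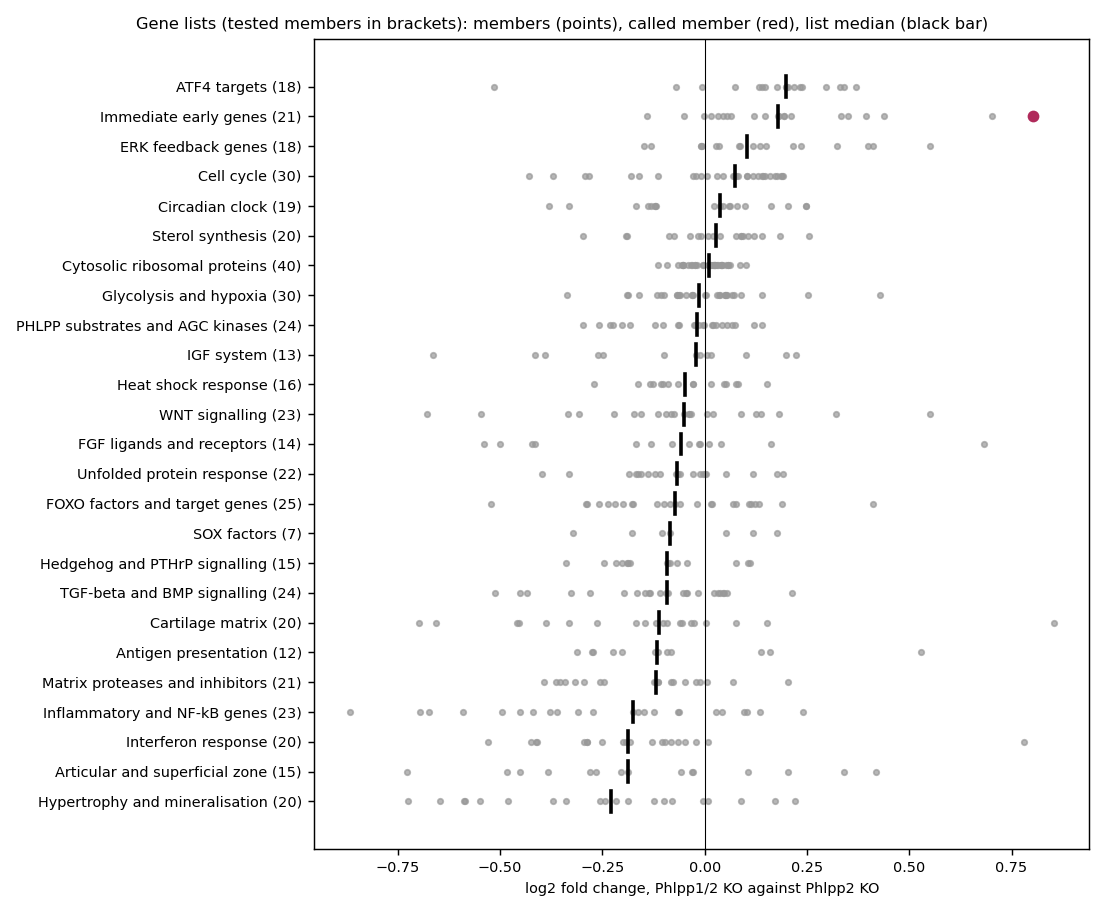
Log2 fold change of every tested member of 25 gene lists in Phlpp1/2 KO against Phlpp2 KO, lists ordered by their median (black bar), with the number of tested members in brackets; the red point is the 1 called member, Fosb. Medians run from -0.23 for hypertrophy and mineralisation to 0.20 for ATF4 targets, and points of every list fall on both sides of 0.

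The genes that define chondrocytes were abundant in all 6 libraries, and 0 of 20 cartilage matrix genes were called by edgeR or by DESeq2. In this list 16 members had a negative log2 difference, the median was -0.11 and 5, all lower, had an unadjusted p under 0.05. Of all tested genes, 0.0724% were called by edgeR, and 3.94% higher and 4.91% lower had an unadjusted p under 0.05. Col2a1, the main collagen of cartilage, was at 27860, 27140 and 33540 CPM in Phlpp2 KO and at 28740, 33000 and 20750 CPM in Phlpp1/2 KO (log2 difference -0.10, SE 0.19, adjusted p 0.892). Its lowest library was Phlpp1/2 KO 3, and without that library the difference was 0.06. Acan, the large proteoglycan, differed by 0.08 and the chondrocyte transcription factor Sox9 by -0.10 (adjusted p 0.879 and 0.886), each with overlapping groups. Decorin (Dcn) was at 381, 437 and 395 CPM in Phlpp2 KO and at 241, 205 and 323 CPM in Phlpp1/2 KO, groups that did not overlap (log2 difference -0.66, SE 0.20, adjusted p 0.516). The link protein gene Hapln1 and the small leucine-rich protein genes Epyc and Prelp differed by -0.46, -0.45 and -0.70 (adjusted p 0.516 to 0.564). In bulk RNA, fewer cells of a type and less RNA per cell cannot be told apart.

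Hypertrophy and mineralisation genes had the lowest median of the pathway lists, -0.23, with 16 of 20 members negative, 0 called by edgeR or DESeq2, and 6 at an unadjusted p under 0.05 (1 higher, 5 lower). Col10a1, the collagen of hypertrophic cells, was at 1194, 559 and 1057 CPM in Phlpp2 KO and at 621, 694 and 387 CPM in Phlpp1/2 KO. The groups overlapped through Phlpp2 KO 2, and the log2 difference of -0.72 (SE 0.28) did not pass the test (adjusted p 0.533). The hypertrophy factors Mef2c and Runx2 differed by -0.55 and -0.24, Phospho1, a phosphatase that starts mineralisation, by -0.65, and Mmp13 by -0.26 (adjusted p 0.516 to 0.738). The osteoblast markers added up to 681, 316 and 497 CPM in the Phlpp2 KO libraries and to 359, 377 and 251 CPM in the double knockout. Phlpp2 KO 1 was the highest library for these markers and for Col10a1, while Mef2c, Runx2 and Phospho1 were highest in Phlpp2 KO 3, and the part of osteoblast RNA in the hypertrophy values was not tested.

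The Hedgehog and PTHrP loop, which spaces hypertrophy in the growth plate, had 12 of 15 members negative, a median of -0.09 and 0 called by edgeR or DESeq2, with 1 member, lower, at an unadjusted p under 0.05. Indian hedgehog (Ihh) was at 2.42, 2.68 and 4.75 CPM in Phlpp2 KO and at 2.77, 3.73 and 1.27 CPM in Phlpp1/2 KO, with overlap (log2 difference -0.34, SE 0.38, adjusted p 0.809). The PTHrP receptor gene Pth1r was lowest in Phlpp1/2 KO 3, at 24.1 CPM against 41.7 to 63.2 CPM in the other 5 (log2 difference -0.22, adjusted p 0.850). Disp1 and Boc, which release and bind Hedgehog ligands, differed by -0.20 and -0.19 (adjusted p 0.552 and 0.587). Of 14 FGF ligands and receptors, 0 were called by edgeR or DESeq2 and 2, both lower, had an unadjusted p under 0.05. Fgf2 was at 88.3, 82.8 and 86.0 CPM in Phlpp2 KO and at 53.6, 44.4 and 78.9 CPM in Phlpp1/2 KO. All double knockout libraries were lower, with Phlpp1/2 KO 3 close to the other group (log2 difference -0.54, SE 0.20, adjusted p 0.516), and Fgf2 was called without that library. Fgf18, the ligand linked to PHLPP1 in cartilage, was at 1.92, 1.22 and 1.04 CPM and at 1.095, 0.734 and 1.122 CPM in turn (log2 difference -0.50, SE 0.30, adjusted p 0.627), with overlap, and Fgf1 differed by -0.42 (adjusted p 0.565).

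The other lists of cartilage biology had 0 called members by edgeR with all libraries. The 15 articular and superficial zone genes had a median of -0.19, with 2 at an unadjusted p under 0.05, Tnc higher and Creb5 lower (log2 difference -0.28, adjusted p 0.520), and Tnc was called by DESeq2, and by edgeR without the low-count filter or without WT 3. The 21 matrix proteases and inhibitors had a median of -0.12 and 18 negative members, 1 of them (Adamts12, -0.39, adjusted p 0.552) at an unadjusted p under 0.05, and Mmp15 differed by -0.36 (adjusted p 0.606). The 24 TGF-beta and BMP genes had a median of -0.09 with 3 lower at that level, the ligand gene Tgfb2 (-0.45) and the receptor genes Bmpr1a (-0.33) and Bmpr2 (-0.28, adjusted p 0.516 for each). Without Phlpp1/2 KO 3, edgeR called Bmpr1a, lower. The 23 WNT genes had a median of -0.05 with 4 lower, including the ligand Wnt5b (-0.33, adjusted p 0.514) and the secreted inhibitor Wif1 (-0.68, adjusted p 0.516). The 7 SOX genes had a median of -0.08 and none at that level. Sox8 and Sox12 differed by -0.32 and 0.18 and Sox11 by 0.12 (adjusted p 0.639, 0.643 and 0.768). DESeq2 called 0 members of the protease, TGF-beta and BMP, WNT and SOX lists.

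Markers of other cell types are given as sums over each list, since RNA of such cells adds to every count. Chondrocyte markers added up to 37230, 37480 and 45890 CPM in the Phlpp2 KO libraries and to 38850, 44240 and 29500 CPM in Phlpp1/2 KO, lowest in Phlpp1/2 KO 3. Fibroblast and perichondrium markers ran from 1112 to 1790 CPM in Phlpp2 KO and from 993 to 1342 CPM in Phlpp1/2 KO. Skeletal muscle markers ran from 9.66 to 21.7 CPM and from 18.4 to 32.7 CPM, with 12 of 13 tested members positive and a median log2 difference of 0.65, and 0 were called by edgeR or DESeq2 or had an unadjusted p under 0.05. Macrophage markers ran from 49.8 to 66.2 CPM and from 51.8 to 70.4 CPM, and osteoclast markers from 120 to 132 CPM and from 122 to 133 CPM. Lymphocyte markers stayed at or below 0.367 CPM, with Cd8a, Ms4a1 and Nkg7 at 0, and erythroid markers at or below 0.532 CPM, with Hba-a2, Hbb-bs and Hbb-bt at 0. Neutrophil markers reached 0.676 CPM at most, endothelial markers 14.98 CPM and keratinocyte markers 11.2 CPM. Pericyte and smooth muscle markers ran from 531 to 663 CPM over the 6 libraries, Schwann and neural markers from 73.1 to 110 CPM and adipocyte markers from 30.9 to 41.2 CPM.

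Whether the loss of Phlpp1 acts differently with and without Phlpp2 was tested as the difference between its log2 changes on the 2 backgrounds. It called 8 genes (0.0483%), 5 higher (0.0302%) and 3 lower (0.0181%), and the direction depended on the setting: 600 of 635 calls were lower with DESeq2, 170 of 183 without the low-count filter, 302 of 308 with a replicate block, 65 of 71 without Phlpp2 KO 2 and 1162 of 1196 without Phlpp1/2 KO 3. None of the 8 is among the 12 genes that changed on the Phlpp2-null background. They are 7 pseudogenes and the mitochondrial gene mt-Nd3, and in all 8 the WT libraries stood apart from the 9 knockout libraries. Rps2-ps10, a pseudogene of the ribosomal protein gene Rps2, had a mean of 544 CPM in WT and of 18.7, 17.7 and 18.4 CPM in Phlpp1 KO, Phlpp2 KO and Phlpp1/2 KO. mt-Nd3, a subunit of respiratory complex I, had means of 19.7 CPM in WT and 1.56, 1.63 and 1.98 CPM in the 3 knockouts. On the Phlpp2-null background alone the log2 difference was 0.05 for Rps2-ps10 and 0.27 for mt-Nd3 (adjusted p 0.927 and 0.674). When only nuclear protein-coding genes were tested, edgeR's interaction called 0 genes, with 2176 at an unadjusted p under 0.05. Each of the 8 shares long stretches with another gene, such as Rps2-ps10 with Rps2 (98.08% over 939 bases) and mt-Nd3 with Gm28438 (99.71% over 345 bases), so that their counts are uncertain.

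**Figure D5:**
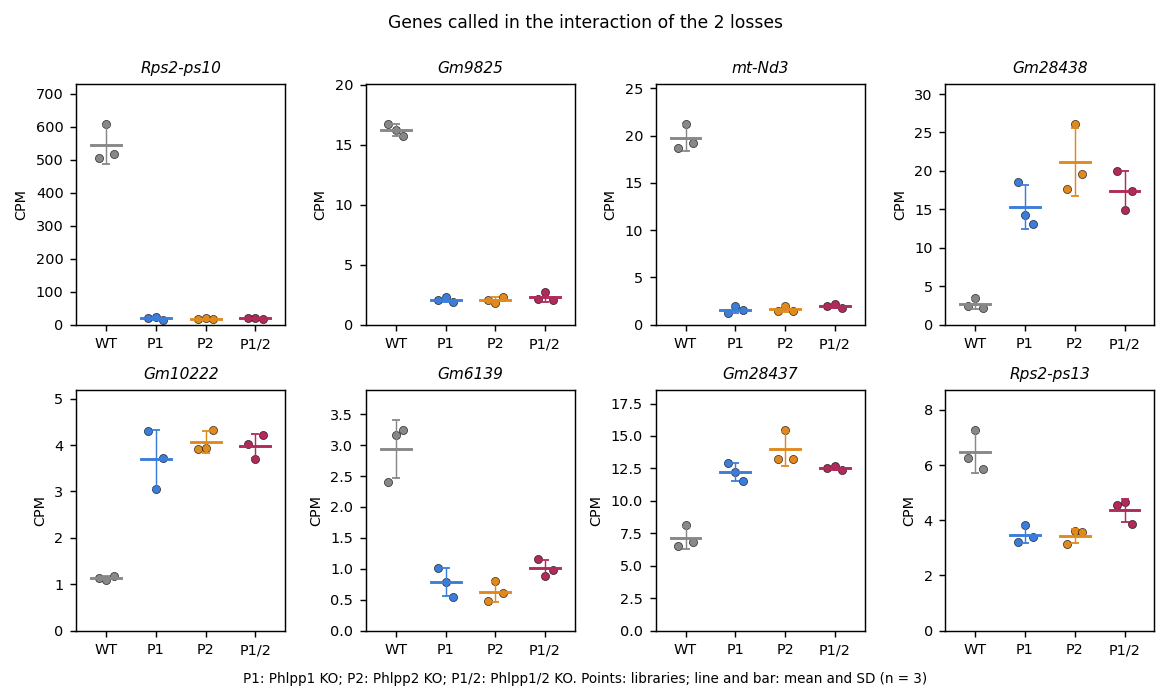
Level in CPM of the 8 genes called for a difference between the effects of Phlpp1 loss on the 2 backgrounds, in all 12 libraries, with axes from 0, points for libraries and the mean and SD of 3. In each panel the 3 WT points lie apart from the 9 knockout points, and none of the 8 genes was called between Phlpp2 KO and Phlpp1/2 KO; for Gm6139 these means were 0.626 and 1.01 CPM.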

How the data were processed

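The authors deposited raw counts of reads per gene for 12 libraries. The tools were bcl2fastq 2.17, STAR 2.5.2b (mm10) and featureCounts of Subread 1.5.2, per the submitters' processing notes; strand setting and multiply mapped reads: not given in the sources used here. In the deposited table, 174 genes without a symbol held 0.00419% of counts. Positions came from GENCODE vM21 for 49056 genes.

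All 12 libraries entered 1 model in edgeR 4.0.16 (R 4.3.3) with genotype as its term, TMM scaling, edgeR's low-count filter (32750 genes removed) and robust quasi-likelihood tests, adjusted by the Benjamini-Hochberg method over 16565 genes. The residual degrees of freedom were 8 and the common biological coefficient of variation was 0.105. CPM used scaled library sizes; SE is the log2 fold change over the square root of F. Named genes were the targeted pair, called genes of at least 1 CPM without overlap, filled to 20 by the smallest p, preset genes, interaction calls and 2 to 4 members of each pathway list; marker lists are given as sums. The rule skips predicted genes, and Gm29337 was added after its values were seen. A list member that the rule takes is not reported here. The genes compared and the 41 lists were chosen with earlier results of these data known. Alternatives used DESeq2 1.42.0 and limma 3.58.1, and tests were tried on simulated data. Near-identical transcripts were searched with BLAST+ 2.17.0 (at least 95% identity over 150 bases). The labels do not say that libraries came from separate animals, so p values measure the spread between libraries, which may be technical.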

Additional observations from a re-analysis of the deposited data

Results flagged for a closer look

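The change on Phlpp1 loss differed between the Phlpp2-null and the WT background for 8 genes (edgeR's quasi-likelihood test of the interaction, Benjamini-Hochberg adjusted p under 0.05). The difference of log2 changes was 4.91 for Rps2-ps10 (adjusted p 1.76e-07), 3.93 for mt-Nd3 and 3.13 for Gm9825 (adjusted p 5.40e-06 for both), 2.57 for Gm6139 (adjusted p 0.0210) and 1.23 for Rps2-ps13 (adjusted p 0.0465). It was -2.78 for Gm28438 (adjusted p 0.00161), -1.73 for Gm10222 (adjusted p 0.00763) and -0.93 for Gm28437 (adjusted p 0.0465). Rps2-ps10, mt-Nd3, Gm9825, Gm28438 and Gm10222 were called in all 12 fits that left out 1 library, Gm6139 in 5, Gm28437 in 3 and Rps2-ps13 in 2. Gm28438, Gm10222 and Gm28437 copy the mitochondrial genes mt-Nd3, mt-Nd4l and mt-Co3. Gm28438 had means of 2.68 CPM in WT and 15.3, 21.1 and 17.4 CPM in Phlpp1 KO, Phlpp2 KO and Phlpp1/2 KO, opposite in direction to mt-Nd3, with which it shares 99.71% of 345 bases. Rps2 itself had means of 1670 CPM in WT and 2678 CPM in Phlpp1 KO (log2 change 0.68, adjusted p 0.000927).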

How the results depend on the processing

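The 12 calls between Phlpp1/2 KO and Phlpp2 KO, the 6 shared with Phlpp1 KO against WT and the 8 of the interaction became, in that order, 39, 15 and 635 with DESeq2, 32, 15 and 183 with no low-count filter, and 3, 2 and 4 without both libraries low in Xist, an alternative chosen after seeing the data. From only the libraries compared, the first 2 counts were both 3, of which 2 each were among the 12 and the 6. Leaving out single libraries gave 4 to 132, 3 to 14 and 5 to 1196, each highest without Phlpp1/2 KO 3. Nuclear protein-coding genes alone gave 0 interaction calls, and 5 calls lay outside 20 Mb of Phlpp1. The 12 calls were among the 39 of DESeq2 and among the 32 without the filter. RLE factors and limma-voom kept every count within 1.5 times. With a replicate block the counts were 10, 6 and 308; same-numbered libraries did not deviate together (r = -0.12, -0.05 and -0.10), and over all 6 pairs of groups the range was -0.16 to 0.30, with 4 of 18 values above 0.1, so that a pairing by number is not shown.

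Over 103 named genes, 675 of 710 log2 changes under other settings and 559 of 618 without 1 library kept direction and side of the threshold. The sign turned only in the latter, for genes that passed no test on this background. Their values ran from -0.338 to 0.056 for Sox9 (positive without Phlpp2 KO 2), from -0.254 to 0.059 for Col2a1 and -0.387 to 0.069 for Pth1r (positive without Phlpp1/2 KO 3), from -0.017 to 0.176 for Acan (negative without Phlpp2 KO 1) and from -0.703 to 0.014 for Ihh (positive without Phlpp2 KO 3). They ran from -0.035 to 0.159 for Rps2-ps10 (negative without Phlpp1/2 KO 1) and from -0.075 to 0.024 for Gm10222 (positive without Phlpp1/2 KO 2, and 0.020 without Phlpp2 KO 3). The cause was not tested. Depth limits genes such as Gm29337, with 1 to 4 reads in the Phlpp2 KO libraries.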

Other observations

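Lists on metabolism and stress, not described above, held 0 called genes by edgeR, which called 0.0724% of all tested genes. ATF4 targets, which serve amino acid synthesis and transport, had the highest median, 0.20, with 15 of 18 members positive and 4, all higher, at an unadjusted p under 0.05. Psat1, the second enzyme of serine synthesis, was at 244, 229 and 231 CPM in Phlpp2 KO and at 300, 318 and 268 CPM in Phlpp1/2 KO, without overlap (log2 difference 0.33, SE 0.08, adjusted p 0.352 by the Benjamini-Hochberg method on edgeR's quasi-likelihood test, as throughout). The amino acid carrier gene Slc7a5 differed by 0.30 (adjusted p 0.516). DESeq2 called Phgdh, and edgeR called Phgdh and Psat1 without the low-count filter and also without Phlpp1/2 KO 3. Of 22 unfolded protein response genes, 16 were negative and 7, all lower, had an unadjusted p under 0.05, with a median of -0.07. Dnajc3, a cochaperone of the endoplasmic reticulum, was at 185, 180 and 217 CPM in Phlpp2 KO and at 148, 137 and 178 CPM in Phlpp1/2 KO, without overlap (log2 difference -0.33, adjusted p 0.490). The chaperone genes Hsp90b1, Creld2 and Hspa5 differed by -0.40, -0.18 and -0.16 (adjusted p 0.516 for each), and without Phlpp1/2 KO 3 edgeR called Dnajc3 and Hsp90b1, both lower.

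Interferon response genes had 18 of 20 members negative and a median of -0.19, with 1, lower, at an unadjusted p under 0.05, and DESeq2 called 0 of these or of the antigen presentation and inflammatory genes. Ifit3 and Ifit2 differed by -0.41 and -0.29 (adjusted p 0.552 and 0.596). On the intact background the median was -0.57. Antigen presentation genes had a median of -0.12 here, with 3 of 12, all lower, at an unadjusted p under 0.05, and H2-Ab1, H2-K1 and Tap1 differed by -0.31, -0.20 and -0.22 (adjusted p 0.562, 0.525 and 0.533). On the intact background H2-Ab1 was called, falling from 16.1 to 9.12 CPM (log2 change -0.82, adjusted p 0.0200). H2-K1 and Tap1 were called there too, with log2 changes of -0.47 and -0.46 (adjusted p 0.0200 and 0.0440). The 23 inflammatory genes had a median of -0.17 and 1, lower, at an unadjusted p under 0.05. Among these the chemokine gene Cxcl14 was at 46.6, 58.6 and 60.7 CPM in Phlpp2 KO and at 42.7, 36.7 and 41.9 CPM in Phlpp1/2 KO (log2 difference -0.45, adjusted p 0.352) and was called on the intact background (-0.67, adjusted p 0.0200), and Rela differed by 0.13 (adjusted p 0.582).

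Of the remaining lists, 7 had medians from -0.05 to 0.07. The median was 0.07 for 30 cell cycle genes (Mcm3 0.19, Mcm2 0.15), 0.04 for 19 clock genes (Cry1 0.16, Clock -0.38), -0.01 for 30 glycolysis and hypoxia genes (Eno2 0.43, Pfkfb3 -0.34) and -0.02 for 13 genes of the IGF system (Igfbp5 -0.39, Igf1 -0.66). It was 0.03 for 20 sterol synthesis genes (Insig1 0.25, Idi1 -0.30), -0.05 for 16 heat shock genes (Hsf1 0.15, Hsf2 -0.16) and 0.01 for 40 cytosolic ribosomal protein genes (Rps7 -0.11, Rps2 0.09). In these 7 lists 11 members reached an unadjusted p under 0.05. The 13 mitochondrially encoded genes had a median of -0.26, with 4 lower at that level (mt-Nd5 -0.34, mt-Co2 -0.30), and added up to 10200, 9048 and 11470 CPM in the Phlpp2 KO libraries and to 7765, 7411 and 10150 CPM in Phlpp1/2 KO. DESeq2 called 0 members of these 8 lists.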
